A study of Mus musculus with 8 samples.

Results

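Of the 8 libraries of this RNA sequencing series 5 were compared: 2 of B cells that received LPS, PMA and ionomycin at the end of a culture with CpG, and 3 of B cells that received CpG alone. The libraries were chosen by their labels, and every gene with enough counts was tested. All libraries came from splenic B cells of C57BL/6 (B6) mice. The CpG group had been cultured with CpG ODN1668 for 3 days. The TLR group had the same CpG culture, with LPS, PMA and ionomycin present in the last 5 hours, so that CpG was common to both groups. The other 3 libraries were of naive B cells with no culture described in the labels. Their levels are given without a test, but those libraries entered the gene filter, the scaling and the estimate of spread behind each p-value. The labels call both cultured groups regulatory B cells (Bregs) and describe no sort on IL-10 or on any surface marker after culture. They also do not say whether libraries of a group came from separate mice or cultures, so that p-values measure the spread between these libraries only.

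CpG ODN1668 is a synthetic DNA that activates TLR9, a receptor for DNA inside endosomes. LPS, from the wall of Gram-negative bacteria, activates TLR4 at the cell surface. PMA takes the place of diacylglycerol and switches on protein kinase C and Ras, and ionomycin lets calcium into the cytosol, where it activates calcineurin and NFAT. PMA and ionomycin together thus start the events that follow the B cell antigen receptor without needing the receptor. The mixture is a common last step before IL-10 is measured in B cells, since IL-10 protein is otherwise hard to detect in them.

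Each library held 15804311 to 19431042 gene counts in the CpG and TLR groups, and 1 count was worth 0.0515 to 0.0633 CPM, the usual depth-scaled unit of counts. Levels below are CPM on library sizes scaled by TMM, a factor that equalizes the bulk of the genes. They are shares of a library, not copies per cell, so that a gene whose RNA is constant takes a smaller share where others grow. Replicate 1 of each group carries a different name prefix from the other replicates, and 37.5 to 50.2% of its tallied reads aligned to more than one place, against 14.7 to 21.5% in the others. The labels do not say what the prefix stands for.

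The last 5 hours changed a large share of the genes these cells express, in nearly equal numbers each way. Of 13964 genes tested, 5417 (38.8%) were called with edgeR's quasi-likelihood test at a Benjamini-Hochberg adjusted p under 0.05. Among them 2647 (19.0%) were higher in the TLR libraries and 2770 (19.8%) were lower. The falls were the larger changes: 1615 genes (11.6%) fell at least 2-fold and 1067 (7.64%) rose as much, and at least 8-fold changes numbered 244 (1.75%) down and 105 (0.752%) up. The median fold was 2.23 among genes that fell and 1.81 among genes that rose.

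Both TLR libraries lay on the same side of all 3 CpG libraries in 8279 of all tested genes (59.3%) and in 5403 of the 5417 called, and the direction was the same within each name prefix in 80.4% of all tested genes and in all 5417 called. The called genes were chosen by a test on these libraries, so that these counts describe them and lend the calls no support. Without TLR replicate 1, 3516 genes were called, 1683 higher and 1833 lower, and without TLR replicate 2, 3757 genes, 1790 higher and 1967 lower.

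**Figure D1:**
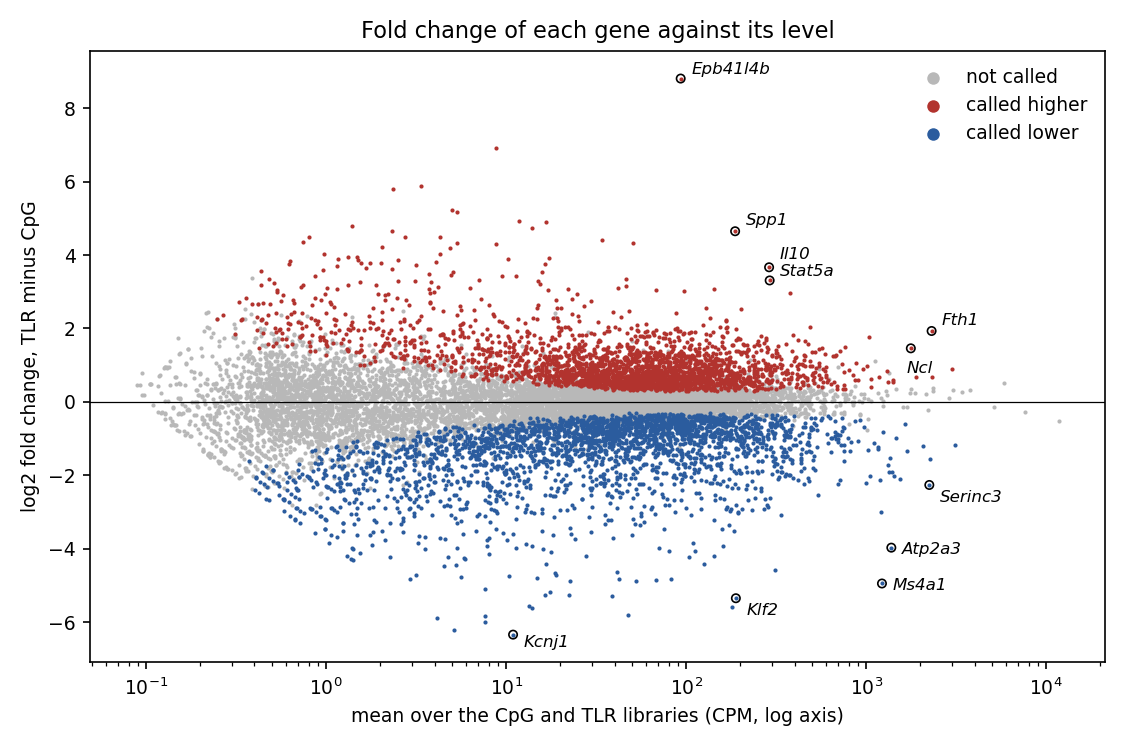
Log2 fold change (TLR minus CpG, vertical axis) of each tested gene with over 3 counts in each group against its mean CPM over the 5 libraries (log axis). Points are genes, coloured by call. Called genes lie on both sides of 0, and the falls of abundant genes such as Ms4a1 and Atp2a3 reach further from 0 than the rises of equally abundant genes.

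As shares of the library, the change was large. Genes called higher went from 184125 to 337172 CPM in all, and genes called lower from 319246 to 146172 CPM. A CpG and a TLR library differed in the placement of 19.9 to 23.8% of their counts over 6 pairs, against 7.13 to 11% between CpG libraries over 3 pairs and 7.93% between the 2 TLR libraries. The change was spread over many genes. It took 262 genes to make up 50% of the CPM gained and 183 to make up 50% of the CPM lost, and the 10 genes with the most gained held 8.57% of the gain.

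The gene that gained the most reads was Fth1, the heavy chain of the iron store ferritin. It held 1254, 956 and 1046 CPM in CpG replicates 1 to 3 and 4934 and 3348 CPM in TLR replicates 1 and 2. Its log2 change was 1.93 ± 0.19 (SE, adjusted p = 4.9e-05), with no overlap of the groups. Next came Hsp90ab1, a constitutive chaperone, from 1776, 2697 and 2168 to 3506 and 4790.1 CPM. Hsp90ab1 had an adjusted p of 0.0143, and of 0.131 without TLR replicate 2. Ncl (nucleolin), Ccnd2 (cyclin D2), Pabpc1 (which binds poly(A) tails), Eif4g2, Atf4, Atp5b (mitochondrial ATP synthase), Jak1 and Eif5a completed the first 10. The adjusted p without TLR replicate 2 was 0.0737 for Eif4g2 and 0.107 for Jak1.

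Among the 10 genes that lost the most reads, 2 were of the 12 B cell defining markers, Ms4a1 and Cd79b. Ms4a1, which codes for CD20, held 2485, 1480.3 and 2019 CPM with CpG and 52.4 and 76.6 CPM after the last step, a log2 change of -4.95 ± 0.29 (adjusted p = 5.84e-06). Both TLR libraries lay far below the lowest CpG library. Atp2a3, the calcium pump of the endoplasmic reticulum in blood cells, went from 2496, 1768 and 2348 to 145 and 135 CPM. Serinc3, a membrane protein, went from 3147, 3431 and 3260.4 to 635 and 731 CPM, and its exons overlap a gene on the other strand, whose reads the strand-blind counting cannot separate. Igkc, Syk, Ly6e, Ly6d, Cd79b, Tmsb4x and H2-Eb1 were the others of the first 10, and Igkc lost its call without TLR replicate 1 (adjusted p = 0.0506).

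Epb41l4b, a membrane skeleton protein of epithelia, was nearly absent with CpG at 0.0645, 0.855 and 0.546 CPM and reached 273 and 192 CPM. Its log2 change of 8.81 ± 0.38 (adjusted p = 2.67e-06) was the highest of the named genes with over 3 counts in both groups, and was 9.46 without CpG replicate 2. Acod1, which makes the antimicrobial metabolite itaconate, went from 0.129, 0.0534 and 0.327 to 33.7 and 9.55 CPM. Acod1 had a log2 change of 6.93 ± 0.79, which became 5.75 without TLR replicate 1, 7.56 without TLR replicate 2 and 7.83 without CpG replicate 3. Il1rn, the natural antagonist of IL-1 receptors, went from 1.61, 1.18 and 8.24 to 105 and 53.4 CPM, with CpG replicate 3 the highest of its group. Its log2 change of 4.42 ± 0.71 became 5.84 without that library. Tnfrsf8 (CD30), Aebp1, Iqgap2, Spp1 (osteopontin), Serpinb6b, Il19 (a relative of IL-10), Dgat2 (the last enzyme of triglyceride synthesis), Adgrl2 and Nek6 rose by 3.75 to 4.92 on the log2 scale. Il19 rose by 3.66 and Dgat2 by 3.04 without TLR replicate 1, Tnfrsf8 by 5.56 and Adgrl2 by 4.51 without CpG replicate 3, and Nek6 overlaps Psmb7 on the other strand.

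Among the steepest falls were those of Klf2 and S1pr1. Klf2, a transcription factor of resting and recirculating lymphocytes, held 338, 319 and 272 CPM with CpG and 7.19 and 7.95 CPM after the last step (log2 change -5.35 ± 0.22, adjusted p = 2.67e-06). S1pr1, the receptor by which lymphocytes leave lymphoid organs and a known target of Klf2, went from 132, 116 and 82.7 to 3.96 and 3.67 CPM (log2 change -4.85 ± 0.25). Naive cells held more of both, at 829.7, 589 and 701 CPM of Klf2 and 445, 402 and 359 CPM of S1pr1. Kcnj1, a potassium channel, had the lowest log2 change of the set, -6.34 ± 0.39, from 23.2, 16.6 and 14.4 to 0.170 and 0.258 CPM. Fcer2a (CD23, the low-affinity IgE receptor) went from 76.3, 75.6 and 39.5 to 1.19 and 2.01 CPM. Cacna1i, Spns2, Fry, Gas7, Ccr6, Cbfa2t3 and Cdhr2 fell by log2 changes of -5.82 to -4.87, of which Spns2, Gas7 and Cbfa2t3 overlap a gene on the other strand. Cdhr2 differed from the rest in that naive cells held at most 0.301 CPM of it. Of these genes, Spns2 had a log2 change of -4.97 without TLR replicate 1 and -7.02 without TLR replicate 2, Gas7 one of -6.06 without TLR replicate 2, and Ccr6 one of -4.48 without CpG replicate 2.

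**Figure D2:**
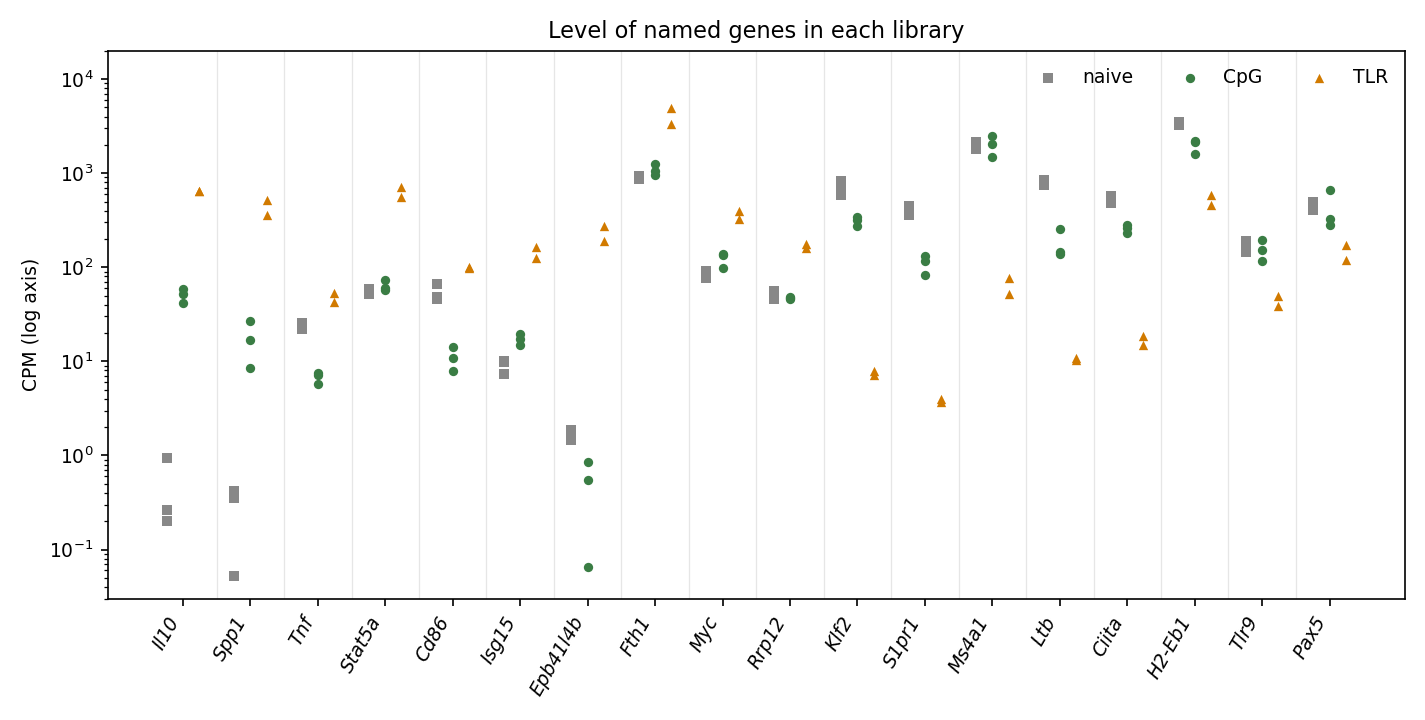
Level of 18 named genes in each library, in CPM on a log axis, for 3 naive (squares), 3 CpG (circles) and 2 TLR libraries (triangles). For each gene the TLR libraries lie outside the range of the CpG libraries, above it for the 10 genes on the left and below it for the 8 on the right.

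A few genes went from the detection floor to a clear level, or back to it. There were 6 genes with at most 3 counts over all CpG libraries and at least 1 CPM in each TLR library, namely Mmp10, Cxcl10, Sez6, Il27, Cartpt and Fosl1. Mmp10, a secreted protease, had 3 counts with CpG and 352 after the last step, a ratio per library size of 168 (exact 95% interval 57.0 to 818). Cxcl10, which attracts activated T cells, had 1 count and then 188, and Il27, a subunit of interleukin 27, had 2 and then 99. Cartpt and Fosl1 had no count in the CpG libraries, where 3 counts over the group is the floor, and were at least 24.8-fold and 22.4-fold higher. The intervals and floors cover counting error only. The other way went 13 genes, among them Abcc6, Egfl6, Lair1, Kcnk13 and Mrvi1. Lair1, an inhibitory receptor for collagen, had 104 counts with CpG and none after the last step, at least 24.2-fold lower. Cxcl10 overlaps Art3 and Il27 overlaps Apobr on the other strand.

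Sequence upstream of 2 of the switched-on genes is shown, picked because each holds a TGANTCA, the letters that AP-1 binds. How many of the other switched-on genes hold one is not given here. The windows run from 250 bases before to 50 bases after the RefSeq start, 5′ to 3′ on the gene's strand, in build GRCm38.p6. Mmp10 lies on the plus strand at chr9:7502092-7502391 and Cxcl10 on the minus strand at chr5:92348840-92349139. Capitals mark TGANTCA, and in Cxcl10 also the core of the interferon response element (GAAA, any 2 bases, GAAA), in either orientation.
Mmp10: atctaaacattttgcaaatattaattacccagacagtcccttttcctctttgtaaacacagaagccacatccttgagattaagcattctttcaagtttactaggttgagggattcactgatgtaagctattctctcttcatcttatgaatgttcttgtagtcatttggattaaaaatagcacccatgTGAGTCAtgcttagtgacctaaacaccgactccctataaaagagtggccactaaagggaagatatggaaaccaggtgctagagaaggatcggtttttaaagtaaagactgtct
Cxcl10: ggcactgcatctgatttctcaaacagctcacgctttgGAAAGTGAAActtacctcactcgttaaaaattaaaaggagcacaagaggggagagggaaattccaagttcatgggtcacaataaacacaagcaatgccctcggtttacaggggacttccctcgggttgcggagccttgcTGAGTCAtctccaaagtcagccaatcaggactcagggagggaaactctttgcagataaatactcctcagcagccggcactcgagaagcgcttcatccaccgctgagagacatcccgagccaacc
A TGANTCA stood in 7.92% of all 27025 windows and in 4.72% of those of tested protein-coding genes. The interferon response core stood in 3.49% and 3.23%. Such matches describe these windows and do not show that a factor was bound.

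Cytokine genes changed in both directions. Of 19 tested cytokine genes, 8 rose (42.1%), namely Il27, Spp1, Lif, Il10, Tnf, Vegfa, Lta and Il6. The 4 that fell (21.1%, near the 19.8% of all tested genes) were Ltb, Csf1, Il12a and Il16. The median log2 change was 0.18, where all tested genes had -0.02. Il10, the cytokine for which regulatory B cells are best known, held 41.8, 51.5 and 58.9 CPM with CpG and 639 and 653 CPM after the last step, while naive cells held 0.938, 0.200 and 0.261 CPM. Its log2 change was 3.67 ± 0.25 (adjusted p = 9.39e-06), a fitted fold of 12.7, and the groups were far apart. Spp1, which codes for osteopontin, went from 17.03, 27.1 and 8.51 to 359.8 and 522 CPM. Tnf, the inflammatory cytokine of the list, went from 5.80, 7.59 and 7.20 to 42.5 and 53.2 CPM (log2 change 2.80 ± 0.17). Il6 rose from 37.8, 25.3 and 53.00 to 108 and 65.4 CPM (log2 change 1.16, adjusted p = 0.0158). Its call was lost without TLR replicate 1 (log2 change 0.76) and where the first replicate of every group was left out (log2 change 0.74). Among those that fell, Ltb (lymphotoxin beta, needed for lymphoid tissue) went from 254, 137 and 145 to 10.2 and 10.9 CPM, and Il12a, the p35 chain of both IL-12 and IL-35, from 110.5, 71.5 and 57.6 to 20.7 and 27.6 CPM. The partner that makes IL-35 with it, Ebi3, was at 11.7, 14.3 and 14.1 CPM and then 11.8 and 8.21 CPM, with overlapping groups (adjusted p = 0.186), and was called lower where the first replicate of every group was left out (adjusted p = 0.0413). Tgfb1 was at 288, 305 and 280.2 and then 307 and 353 CPM and did not pass the test (adjusted p = 0.295).

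Chemokines showed 4 rises (33.3%) and 1 fall (8.33%) of 12 tested, against 19.0% and 19.8% of all tested genes. Ccl5, which attracts T cells and other leukocytes, went from 0.774, 0.481 and 0.546 to 14.5 and 5.16 CPM, and its log2 change of 4.03 ± 0.67 was 3.10 without TLR replicate 1. Ccl4 went from 61.4, 29.3 and 34.98 to 189.7 and 83.5 CPM and lost its call without TLR replicate 1 (adjusted p = 0.117). The summed CPM of the 12 was 65 to 128 with CpG and 178 to 292 after the last step.

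Genes named in the literature on regulatory B cells did not move as 1 group. Of 24, 7 rose (29.2%) and 6 fell (25%), against 19.0% and 19.8% of all tested genes. Fewer rose without TLR replicate 1. Besides Il10, the rises included Havcr1 (TIM-1, a marker of IL-10-producing B cells), from 35.8, 32.8 and 44.9 to 169.7 and 102 CPM. Ctla4, an inhibitory receptor, rose from 23.7, 30.1 and 31.9 to 105 and 94.02 CPM. Cd1d1, which presents lipids and marks a splenic regulatory B cell subset, held 89.3, 71.03 and 74.1 CPM in naive cells and fell from 14.6, 12.7 and 10.3 to 0.340 and 1.45 CPM. The log2 change of Cd1d1 was -3.77 ± 0.40, and -3.10 and -5.18 without TLR replicate 1 and 2. Cd38, an ectoenzyme that consumes NAD, fell from 583, 693 and 785 to 197 and 263 CPM. Prdm1, the master factor of plasma cells, fell from 76.2, 67.6 and 88.7 to 9.74 and 19.98 CPM (log2 change -2.38, and -2.996 without TLR replicate 2). Cd274 (PD-L1) was at 81.3, 56.4 and 89.9 and then 58.5 and 41.6 CPM with an adjusted p of 0.0521, just outside the threshold, and was called lower in 8 of the 17 alternative analyses. Cd5, another surface marker of such cells, was at most 0.481 CPM in every cultured library and was not called (adjusted p = 0.104).

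Checkpoint, co-stimulatory and receptor genes changed in both directions. Cd86, the co-stimulatory ligand of CD28, rose from 7.87, 14.3 and 10.9 to 97.3 and 101 CPM (log2 change 3.16 ± 0.23). It was the 1 member of 14 co-stimulatory and TNF family ligands that rose (7.14%), and 5 fell (35.7%). Of 16 inhibitory checkpoints 4 rose (25%) and 5 fell (31.25%), against 19.0% and 19.8% of all tested genes. Pirb, an inhibitory receptor for class I molecules, fell from 74.7, 59.3 and 51.7 to 4.13 and 5.32 CPM. Of 38 cytokine receptors 14 fell (36.8%) and 7 rose (18.4%, near the 19.0% of all tested genes), and fewer rose without TLR replicate 1. Il10ra, the chain that binds IL-10, fell from 667, 463 and 469 to 125 and 142 CPM, and Tgfbr2 from 392, 411 and 477 to 137 and 117 CPM. Il2ra, the high-affinity IL-2 receptor chain, rose from 49.1, 111 and 80.6 to 307 and 296 CPM.

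Some of the genes that brake MAP kinase signalling, and some that report it, rose. Of 16 MAP kinase phosphatases and ERK inhibitors 7 rose, 0 fell and 9 were not called, with a median log2 change of 0.75. In this list and the others below with 0 calls in a direction, 0 members passed in that direction at an unadjusted p under 0.05 in edgeR or with DESeq2, except Egr3 (lower in both) and Irf3 and the T cell marker Cd28 (higher, unadjusted). Dusp4, which removes phosphate from ERK, went from 27.5, 58.8 and 44.5 to 248 and 266 CPM, and Spry4, an inhibitor of Ras signalling, from 0.387, 0.214 and 0.710 to 10.8 and 9.24 CPM. Of 11 Egr and Nr4a genes 6 rose and 0 fell, with a median of 1.64. Nr4a1, an orphan nuclear receptor induced by antigen receptor signals, went from 44.2, 63.4 and 43.9 to 202 and 167 CPM and Egr2 from 15.2, 17.8 and 19.5 to 50.8 and 58.2 CPM. Of 14 AP-1 and ATF genes 6 rose and Bach1 fell. Fosl2 rose from 1.87, 2.24 and 2.84 to 27.97 and 22.05 CPM and Junb from 183, 209.7 and 191 to 778 and 596 CPM. The first AP-1 members named, Fos and Jun, did not pass the test. Fos was at 5.68, 1.23 and 2.84 and then 5.44 and 12.96 CPM (adjusted p = 0.124), and Jun at 230.3, 318 and 353 and then 268 and 191 CPM (adjusted p = 0.603).

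The NF-kB list rose by less. Of its 19 genes 10 rose and 2 fell, with a median log2 change of 0.50, and no called member reached 2-fold. Without TLR replicate 1, 4 were called higher, and the summed level was 6287 CPM in that library and 4851 CPM in the other, against 4428 to 4870 CPM with CpG. Rel, the subunit c-Rel, went from 49.3, 70.8 and 60.4 to 120.3 and 105 CPM and Tnip1, an inhibitor of the pathway, from 177, 180.4 and 204 to 339.6 and 290.1 CPM.

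Most listed genes of protein kinase C, Ras control and diacylglycerol turnover, and fewer of the NFAT and calcineurin list, were called lower. In the first list 12 of 20 genes fell and 1 rose, with a median log2 change of -1.37. Rasgrp1, which diacylglycerol or PMA recruits to activate Ras, fell from 111, 119 and 139 to 15.6 and 19.2 CPM (log2 change -2.82 ± 0.16). Its relative Rasgrp3 fell from 271, 381 and 291 to 35.3 and 48.2 CPM, and Prkca, a protein kinase C that PMA binds, from 128, 125 and 156 to 34.9 and 28.5 CPM. Of 16 NFAT and calcineurin genes 5 fell (31.25%), 1 rose (6.25%) and 10 were not called, with a median of -0.21. Over all tested genes 19.8% fell and 19.0% rose. Fewer of the 16 fell without TLR replicate 2. Nfatc1 fell from 230.2, 160.5 and 189 to 57.8 and 51.8 CPM, and Ppp3ca, the catalytic subunit of calcineurin, from 467, 462 and 478 to 236 and 247 CPM.

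In the JAK-STAT list 7 of 22 rose (31.8%) and 2 fell (9.09%), against 19.0% and 19.8% of all tested genes. Stat5a, which carries signals of IL-2 and related cytokines, went from 57.5, 72.9 and 60.6 to 706 and 557 CPM (log2 change 3.31 ± 0.15, adjusted p = 2.67e-06). Stat5a overlaps Stat3 on the other strand. Its neighbour and close relative Stat5b, with no such overlap, rose from 101, 116 and 109 to 249.5 and 191 CPM. Of 35 interferon-stimulated genes 6 rose and 6 fell (17.1% each), near the 19.0% and 19.8% of all tested genes, with a median of 0.07. Isg15, a ubiquitin-like protein of the antiviral response, rose from 17.2, 15.01 and 19.7 to 164 and 125 CPM, and Ifih1, the RNA sensor MDA5, from 19.99, 24.5 and 32.1 to 264 and 147 CPM. Gbp3, a GTPase induced by interferon gamma, fell from 125, 119.6 and 125 to 51.9 and 58.9 CPM. The calls in this list depended on the TLR libraries, with more rises without replicate 1 and more falls without replicate 2.

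Genes for making ribosomes rose as a body. All 29 tested members of the ribosome biogenesis list were called higher, where 19.0% of all tested genes were, with a median log2 change of 1.35. Their summed level went from 4186, 4951 and 4717 CPM to 10600 and 12320 CPM. Rrp12, which exports ribosomal subunits, went from 48.2, 45.6 and 47.2 to 176 and 161 CPM (log2 change 1.84 ± 0.12, adjusted p = 7.15e-06). Nop56, of the particle that methylates ribosomal RNA, went from 135, 149 and 144 to 415 and 426 CPM, and Ncl, nucleolin, from 797, 1297 and 1027 to 2322 and 3402 CPM. Nop56 and Ncl hold small nucleolar RNA genes within their bounds, and Nop56 also overlaps a gene on the other strand. Myc, the factor best known for driving this programme, rose from 98.03, 137 and 137 to 393 and 327 CPM, and 2 repressors of its targets fell, Mxd4 from 134, 117 and 134 to 4.93 and 10.3 CPM (log2 change -4.07, and -4.71 without TLR replicate 2) and Mxd1 from 22.3, 21.6 and 25.5 to 7.64 and 6.61 CPM.

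Windows at the start of 2 ribosome biogenesis genes are shown because they hold CACGTG, the E-box that Myc and its partners bind, in capitals. A CACGTG stood in 5 of the 25 windows found for the list. Nop2, a methyltransferase of ribosomal RNA that went from 97.1, 109 and 99.4 to 274 and 319 CPM, lies on the plus strand at chr6:125131633-125131932. Pes1, a ribosome assembly factor that went from 90.4, 96.9 and 93.1 to 173 and 181 CPM, lies on the plus strand at chr11:3963725-3964024 (RefSeq, GRCm38.p6).
Nop2: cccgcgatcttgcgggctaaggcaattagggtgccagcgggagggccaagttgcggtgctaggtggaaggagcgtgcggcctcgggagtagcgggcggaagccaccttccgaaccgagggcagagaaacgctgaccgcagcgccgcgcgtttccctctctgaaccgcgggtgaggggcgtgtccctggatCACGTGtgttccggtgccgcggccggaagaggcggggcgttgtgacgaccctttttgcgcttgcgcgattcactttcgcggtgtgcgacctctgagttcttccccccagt
Pes1: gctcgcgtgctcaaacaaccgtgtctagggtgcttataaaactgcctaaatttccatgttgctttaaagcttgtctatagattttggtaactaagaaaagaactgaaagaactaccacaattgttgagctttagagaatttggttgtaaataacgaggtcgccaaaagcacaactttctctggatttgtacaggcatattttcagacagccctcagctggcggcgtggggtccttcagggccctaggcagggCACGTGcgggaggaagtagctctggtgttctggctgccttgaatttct
Over all protein-coding genes, CACGTG (both strands) stood in 14.1% of the windows of genes called higher, 8.91% of those called lower and 9.24% of those not called. CCGGAAG, the letters of ETS factors, stood in 25.4%, 12.2% and 18.8%. TGANTCA stood in 4.39%, 4.75% and 4.82%, and the interferon response core in 2.98%, 3.27% and 3.31%. Among the 74 windows of genes called at least 8-fold higher the order was another. TGANTCA and the interferon response core each stood in 13.5% (10 windows each), CACGTG in 16.2% and CCGGAAG in 5.41%. In the 149 windows of genes called at least 8-fold lower the shares were 6.04%, 2.01%, 6.71% and 5.37%, respectively. CCGGAAG stood in 17.4% of the windows of genes called at least 2-fold higher and in 7.90% of those at least 2-fold lower. No motif of these contains another. A window was found for 81.0% of the 12041 protein-coding genes tested, by symbol, identifier or older symbol, and the median GC content was 61.7% for genes called higher, 60% for those called lower and 60.7% for the others. Across all 27025 windows, 7.24% held CACGTG and 9.14% held CCGGAAG.

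Genes of translation, the proteasome and oxidative phosphorylation rose in part, with less uniformity. Of 18 aminoacyl-tRNA synthetases, which load tRNAs with amino acids, 15 rose, with a median log2 change of 1.05. Of the list only Vars fell, from 869.5, 829 and 774 to 633 and 583 CPM. Its call was lost without either TLR library and with the CpG and TLR libraries alone. Of 65 translation initiation and elongation factors 36 rose and 4 fell. Of 36 proteasome subunits 28 rose, 15 without TLR replicate 2, and Psmb10, a subunit of the immunoproteasome, fell. Of 76 mitochondrial ribosomal proteins 47 rose, 31 without TLR replicate 2. Of 83 cytosolic ribosomal proteins 26 rose (31.3%) and 57 were not called, and the median change was 0.32. Fewer rose without TLR replicate 1. Their summed levels overlapped, at 35846, 30351 and 25865 CPM with CpG and 38912 and 31979 CPM after the last step. Replicate 1 was the highest of each group. The nuclear genes of oxidative phosphorylation rose in 22 of 77 (28.6%), where 19.0% of all tested genes did. Fewer of them rose without either TLR library, and 13 rose without CpG replicate 3.

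Amino acid and metabolic genes rose in part. Of 26 ATF4 targets and one-carbon genes 15 rose and 0 fell, with a median of 1.48, and the rises were 7 without TLR replicate 1, in which the summed level was 9484 CPM against 6306 CPM in the other TLR library. Atf4, the factor of the amino acid response, went from 416, 362 and 554 to 1434 and 1061 CPM, and Phgdh, the first enzyme of serine synthesis, from 55.3, 46.3 and 87.4 to 255.6 and 201 CPM. Of 30 glycolysis and hypoxia genes 8 rose (26.7%) and 3 fell (10%), against 19.0% and 19.8% of all tested genes. CpG replicate 2 stood apart here, with 7054 CPM summed over the list against 2752 and 3226 CPM in the other CpG libraries and 7799 and 6290 CPM in the TLR libraries, and 21 rose without it. Hk2, the hexokinase of growing cells, went from 46.3, 87.2 and 73.1 to 353 and 277 CPM. Sterol and fatty acid genes changed in 6 of 27, 3 each way (11.1%, below the shares over all tested genes), and 8 rose without CpG replicate 2. Fasn, which builds fatty acids, rose from 300.1, 354 and 242 to 563 and 649 CPM, and Scd1, which desaturates them, fell from 1884, 2061 and 1559 to 542 and 739 CPM. Of 16 heat shock genes 8 rose, 4 without TLR replicate 2.

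Genes of the cell cycle changed in both directions. Of 20 genes of G1 cyclins, their inhibitors and Myc partners 3 rose (15%), Ccnd2, Myc and Cdk4, and 9 fell (45%), where 19.0% and 19.8% of all tested genes did. Ccnd2, cyclin D2, which opens the G1 phase, rose from 345, 673 and 556 to 1969 and 1606 CPM. Of 30 DNA replication genes 11 rose (36.7%) and E2f2 fell. Fewer rose where either TLR library was left out, as over all tested genes. Mcm5, of the replicative helicase, went from 160.5, 257 and 279 to 466 and 437 CPM. Of 28 mitotic genes 7 fell (25%, near the 19.8% of all tested genes) and 0 rose, with a median of -0.71. Mki67, a proliferation marker, fell from 229, 300.2 and 277 to 115 and 116 CPM, still above the 69.7, 61.2 and 37.4 CPM of naive cells. The mitotic count depended on 2 libraries, with 17 falls without CpG replicate 1 and 2 without TLR replicate 1. Quiescence factors fell too: 13 of 21 Krueppel-like and quiescence genes were lower and 2 higher, among them Btg2, an antiproliferative gene, from 356, 412 and 380.5 to 71.8 and 78.1 CPM.

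**Figure D3:**
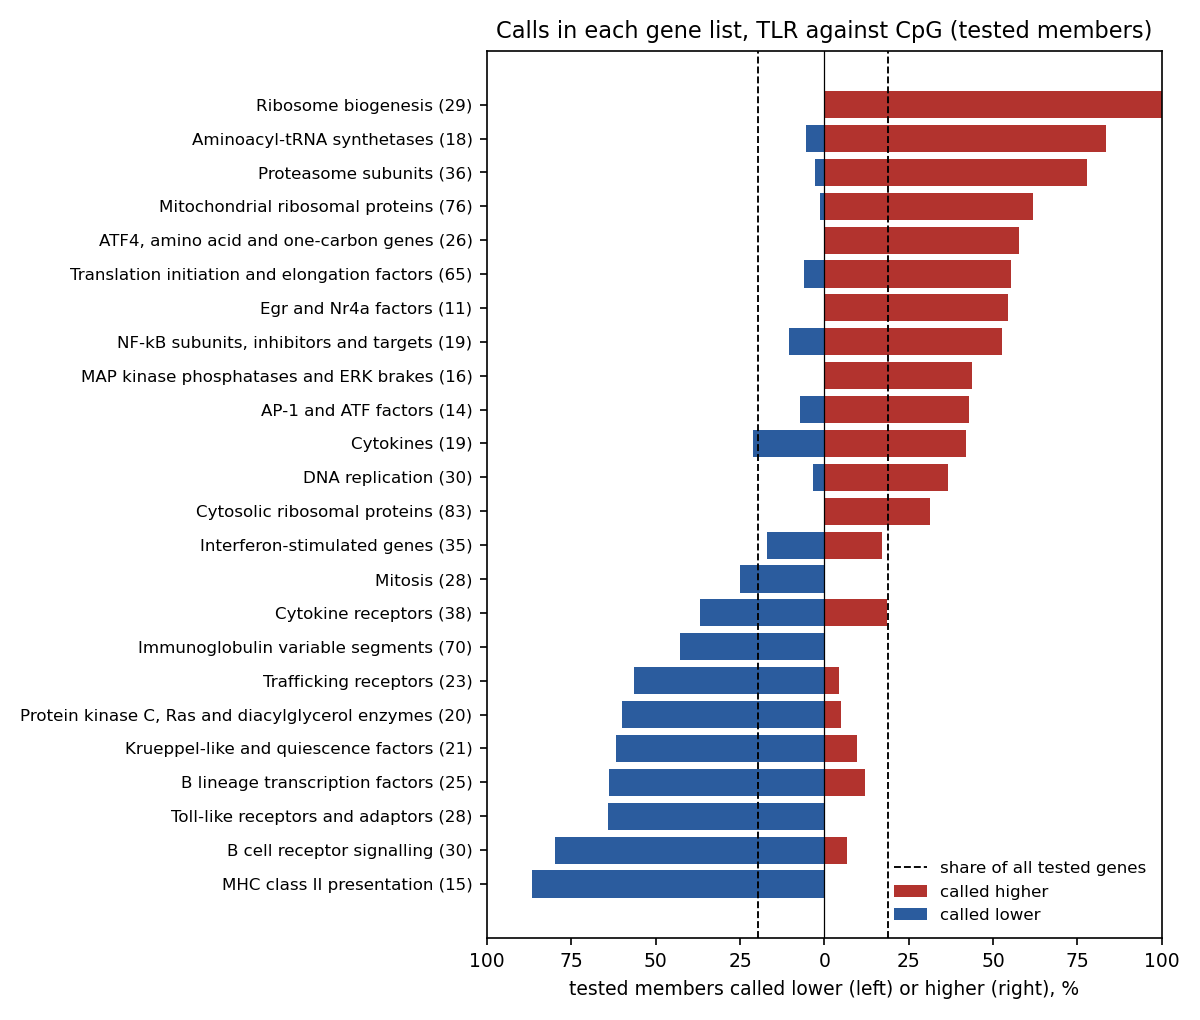
Percentage of the tested members of 24 gene lists (number in parentheses) called lower (left, blue) or higher (right, red) in the TLR libraries. Dashed lines mark the share over all tested genes, 19.8% lower and 19.0% higher, and the lists run from ribosome biogenesis, all 29 higher, to MHC class II presentation, with 13 of 15 lower.

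Most genes of the antigen receptor pathway fell. Of 30 B cell receptor signalling genes 24 fell and 2 rose, with a median log2 change of -1.19, where 19.8% of all tested genes fell. The summed level went from 22151, 18860 and 18005 CPM to 8300 and 9163 CPM. Cd79b, a signalling chain of the receptor, fell from 2752, 1723 and 1622 to 488 and 516 CPM, and Syk, the kinase it recruits, from 3292, 2809 and 3177 to 1025 and 1072 CPM. Blnk, the adaptor that Syk phosphorylates, fell from 481, 454 and 481 to 97.5 and 130.2 CPM, and Blk, a Src family kinase, from 214, 208 and 172 to 41.9 and 43.2 CPM. None of these 4 genes had overlapping groups.

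The identity genes of B cells fell alongside. Of 12 defining markers 11 fell, with a summed level of 25270 to 28920 CPM with CpG and 11727 to 14454 CPM after the last step. Cd79a, the other signalling chain of the antigen receptor, went from 1764, 1207 and 1061 to 553 and 536 CPM, and none of the 12 markers was at 0. Of 25 B lineage transcription factors 16 fell and 3 rose. Pax5, which maintains B cell identity, fell from 659, 281 and 327 to 172 and 119 CPM, with CpG replicate 1 the highest, and lost its call without TLR replicate 2 (adjusted p = 0.0614). Ikzf3 (Aiolos) fell from 379, 309 and 315 to 60.4 and 44.1 CPM and Pou2af1, a coactivator of immunoglobulin genes, from 907, 1116 and 1064 to 216 and 254 CPM. In bulk RNA, fewer cells with a gene and less of its RNA per cell cannot be told apart.

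Markers of other cells summed to at most 314 CPM a list in the cultured libraries, against at least 11727 CPM for the B cell markers. The 9 stromal and endothelial markers summed to 222 to 314 CPM with CpG and 171 to 231 CPM after the last step, of which Pecam1, which B cells also express, held 311, 218 and 293 and then 231 and 170.5 CPM. The 12 dendritic cell markers summed to 95 to 118 and then 85 to 107 CPM, of which Bst2, an interferon-induced gene, held 67.5, 64.8 and 70.1 and then 70.7 and 79.9 CPM, and Clec10a was at 0. The 17 T cell markers summed to 97 to 127 CPM with CpG and 29 to 33 CPM after the last step. The 16 tested macrophage and monocyte markers summed to 62 to 93 and then to 26 CPM in both TLR libraries. No T cell or macrophage marker was at 0 over all cultured libraries. Natural killer cell markers summed to 24 to 48 and then 77 to 91 CPM, of which Tbx21, a factor that B cells also make after CpG, held 89.4 and 75.4 CPM, and Ncr1 and Gzma were at 0. Erythroid markers summed to 8 to 22 and then 56 to 62 CPM, of which Hbb-bt held 33.3 and 36.3 CPM and Car2 27.5 and 19.8 CPM, with Hba-a2 and Slc4a1 at 0. Platelet markers summed to 14 to 19 and then 7 to 9 CPM. Basophil and mast cell markers reached 2 CPM at most, and neutrophil markers 5 CPM, with 5 of 10 at 0. The part of other cells in the results was not tested.

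Antigen presentation by class II molecules fell in nearly every gene: 13 of 15 were lower and 0 higher, with a median log2 change of -1.72. Ciita, the coactivator without which class II genes are silent, fell from 279.6, 259 and 230.4 to 15.1 and 18.7 CPM (log2 change -3.92 ± 0.17, adjusted p = 2.67e-06), from 482, 574 and 519 CPM in naive cells. Ciita overlaps Dexi on the other strand. H2-Eb1, a beta chain, fell from 2206, 2122 and 1584 to 461 and 586 CPM and H2-Aa, an alpha chain, from 1976, 2079 and 1468 to 473 and 647 CPM. H2-DMa, which helps to load peptides, fell from 194, 188 and 142 to 29.2 and 32.9 CPM. Class I genes were less uniform, with 8 of 18 down and 2 up, but 3 and 4 down without TLR replicates 1 and 2. B2m, the common light chain of class I molecules, fell from 1224, 1198 and 982 to 549 and 533 CPM. Each class holds close copies of its own genes, so that single members are uncertain where copies share reads.

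Windows of the alpha and beta chain are shown because class II genes fell together and are known to share a promoter module that includes CCAAT, in capitals here in either orientation. Windows were found for 10 of the 14 class II list members that are protein-coding and tested, too few to give a share. H2-Aa lies on the minus strand at chr17:34287774-34288073 and H2-Eb1 on the plus strand at chr17:34305617-34305916 (RefSeq, GRCm38.p6).
H2-Aa: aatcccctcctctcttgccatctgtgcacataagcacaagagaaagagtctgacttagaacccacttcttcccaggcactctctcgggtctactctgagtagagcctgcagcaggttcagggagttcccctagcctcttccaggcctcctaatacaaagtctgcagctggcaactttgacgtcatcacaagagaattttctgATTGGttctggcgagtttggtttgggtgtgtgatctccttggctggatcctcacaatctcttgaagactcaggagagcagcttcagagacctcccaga
H2-Eb1: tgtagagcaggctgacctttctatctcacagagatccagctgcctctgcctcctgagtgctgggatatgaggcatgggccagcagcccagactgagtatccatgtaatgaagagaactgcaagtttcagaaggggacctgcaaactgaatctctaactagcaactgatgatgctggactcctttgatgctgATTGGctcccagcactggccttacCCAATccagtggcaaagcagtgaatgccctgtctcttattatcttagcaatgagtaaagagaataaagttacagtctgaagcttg
CCAAT stood in 38.02% of all 27025 windows.

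The receptors for the stimuli themselves fell. Of 28 Toll-like receptor genes and adaptors 18 fell and 0 rose, with a median of -0.57. Without TLR replicate 1, 10 fell. Tlr4, the receptor for LPS, fell from 10.6, 14.2 and 18.7 to 2.38 and 2.22 CPM, and Tlr9, the receptor for CpG, from 118, 152 and 197 to 38.3 and 49.8 CPM. Unc93b1, which carries Tlr9 to endosomes, fell from 1707, 1331 and 1338 to 303 and 329 CPM. In naive cells Tlr4 held 30.1, 33.7 and 30.2 CPM and Tlr9 146, 188 and 151 CPM, so that Tlr4 was lower in each cultured library than in the naive libraries while Tlr9 in the CpG libraries overlapped them.

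Homing and secretion genes fell as well. Of 23 trafficking receptors 13 fell and 1 rose, with a median of -1.57. Itga4, an integrin chain, fell from 124, 97.98 and 133 to 18.6 and 19.5 CPM. The 1 rise was Cd44, from 724, 746 and 1144 to 1432 and 1277 CPM. Its call was lost without CpG replicate 1 or 2, without naive replicate 2 and without either TLR library. It was also lost with the CpG and TLR libraries alone and where the first replicate of every group was left out. Of 17 plasma cell genes 7 fell and 2 rose. Mzb1, a helper of antibody secretion, fell from 717, 645 and 602 to 138 and 140.1 CPM, while Sdc1 (CD138), the usual surface marker of plasma cells, rose from 2.97, 8.39 and 3.17 to 25.3 and 35.2 CPM (log2 change 2.63, and 3.30 without CpG replicate 2). Ung, a glycosylase that removes uracil from DNA, rose from 22.8, 33.9 and 32.5 to 109 and 92.9 CPM. Of 70 immunoglobulin variable segments 30 fell and 0 rose, and the falls were 10 without TLR replicate 1.

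Of 25 genes of the BCL2 family and of survival and death 4 rose (16%) and 5 fell (20%), near the 19.0% and 19.8% of all tested genes. Bcl2l1, which codes for the survival protein Bcl-xL, rose from 42.4, 49.05 and 49.9 to 178 and 166 CPM (log2 change 1.87 ± 0.11, adjusted p = 5.84e-06). Mcl1, another survival protein, fell from 1451, 1504 and 1589.5 to 543 and 711 CPM, and Bmf, which promotes death, from 158, 114 and 115 to 19.3 and 20.9 CPM. Among purinergic genes 5 rose and 5 fell of 18 (27.8% each), with P2ry2, a receptor for extracellular ATP and UTP, up from 2.97, 3.37 and 3.60 to 33.2 and 31.8 CPM.

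Broad gene classes can be read against the 19.0% of all tested genes called higher and the 19.8% called lower. Of 331 C2H2 zinc finger genes 21 rose (6.34%) and 65 fell (19.6%, near the share over all genes), and the rises and falls were 3 and 36 without TLR replicate 1 and 12 and 29 without TLR replicate 2. Of 227 solute carriers 45 rose and 47 fell, near the share over all genes. Of 39 splicing factors 18 rose and 1 fell, and 8 rose without TLR replicate 2. Outside protein-coding genes, 43 of 90 small nucleolar RNA genes rose and 1 fell, with summed levels of 72 to 146 CPM with CpG and 254 to 266 CPM after the last step. These genes lie within other genes, and whether their counts are reads of the host gene's RNA was not tested. Antisense genes fell in 35 and rose in 11 of 270, and long intergenic RNAs fell in 27 and rose in 8 of 102.

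The direction of change went with the level of a gene. Levels were set per kilobase of exon, as the mean over the 3 CpG and 2 TLR libraries, so that the CpG group weighs more. At up to 0.25 CPM per kilobase, 5.77% of genes were called higher and 11.3% lower, with a median log2 change of -0.41. At 16 to 64 CPM per kilobase, 30.3% were higher and 20.3% lower, with a median of 0.12, and above 64 CPM per kilobase 29.5% and 27.5%. A gene with few counts needs a larger fold to be called. The naive libraries also entered the filter, which passed 13964 genes, against 13058 with the CpG and TLR libraries alone. How far that shaped the low bins was not tested. The median fold among called genes was largest in the lowest bin, 6.31 up and 7.07 down. It was smallest at 16 to 64 CPM per kilobase for rises (1.68) and at 4 to 16 CPM per kilobase for falls (1.83), and was 1.76 and 2.07 in the highest bin. Among the 64 genes with the most reads, on the CPM scale without length, 20 fell at least 2-fold and 3 rose as much.

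It also went with the length of the gene. Genomic span, from the first to the last base of the gene, had a median of 17.8 kilobases in protein-coding genes called higher, 31.2 kilobases in those called lower and 23.7 kilobases in the others. Of genes of 3 to 10 kilobases, 26.8% were higher and 15.5% lower, while of those over 100 kilobases 11.9% were higher and 33.4% lower. The number of exons had close medians of 9, 10 and 9, but its bins differed. Of genes with over 16 exons, 17.9% were higher and 25.1% lower. The shares were 23.8% and 18.5% at over 4 and up to 8 exons, and 15.7% and 14.8% at 1 exon. Exon length had medians of 3.99, 5.05 and 4.47 kilobases. Of genes with over 8 kilobases of exon, 14.2% were higher and 26.2% lower. Whether span acts apart from exon number and exon length was not tested. The pattern by span was present within bands of level. At 16 to 64 CPM per kilobase, 14.9% of genes of 3 to 10 kilobases and 51.1% of 176 genes over 100 kilobases were lower, and at 1 to 4 CPM per kilobase 20.3% and 38.7%. Spans were taken from GENCODE M21 by gene identifier, since the deposited counts were made on another build.

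**Figure D4:**
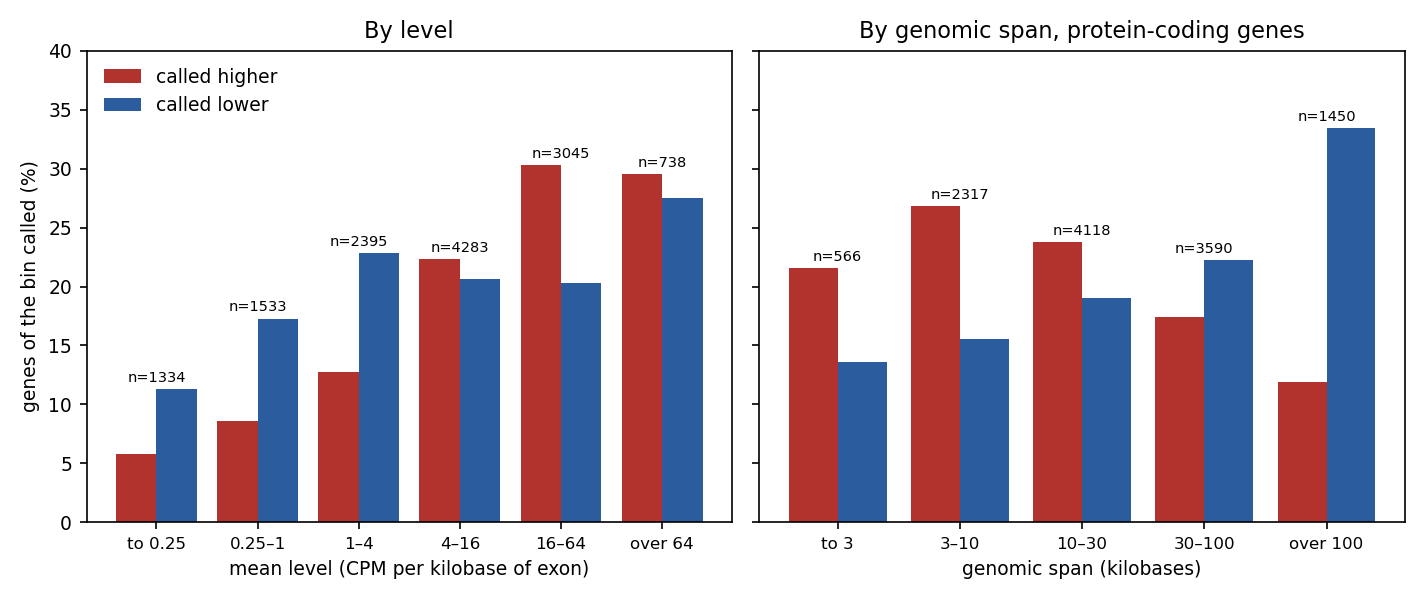
Percentage of genes called higher (red) and lower (blue) by mean level in CPM per kilobase of exon (left) and, for protein-coding genes, by genomic span in kilobases (right), with the number of genes in each bin. The share called higher rises to 30.3% with level, and the share called lower rises to 33.4% with span.

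**Figure D5:**
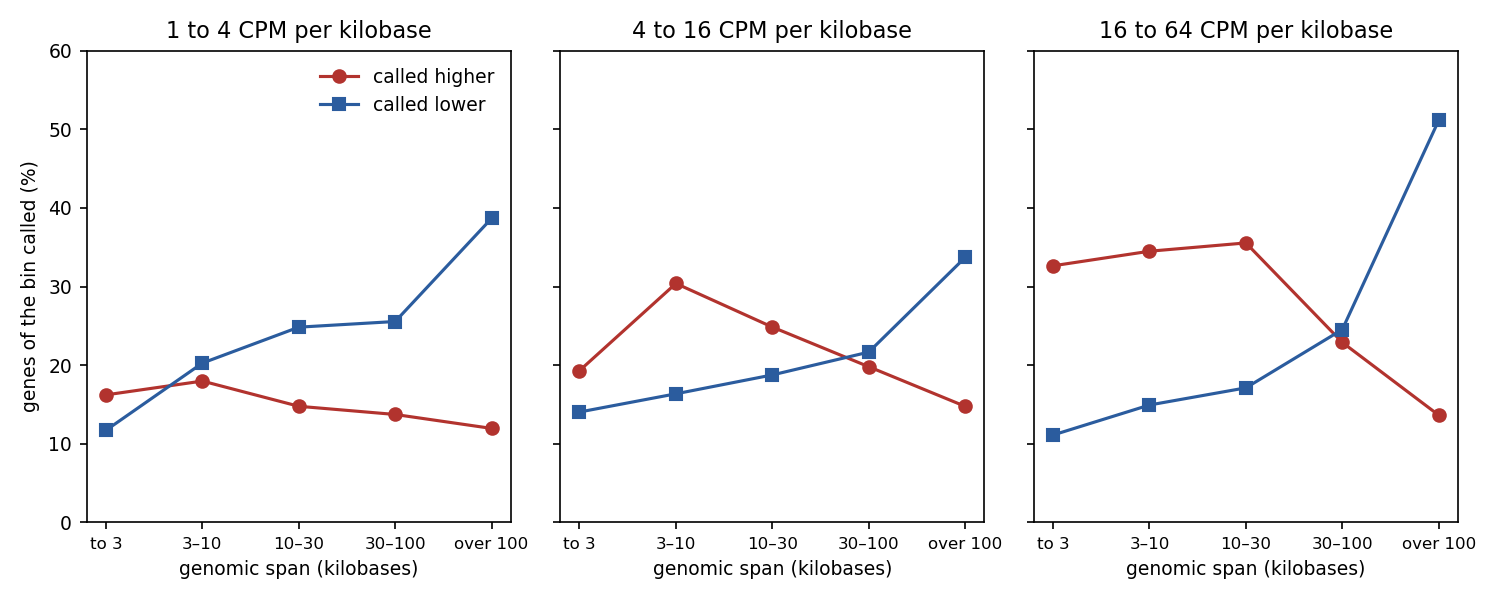
Percentage of protein-coding genes called higher (red circles) and lower (blue squares) by genomic span in kilobases, in 3 bands of mean level. In each band the longest genes have the largest share called lower, 38.7%, 33.7% and 51.1%.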

How the data were processed

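RNA sequencing counts of 8 libraries of mouse splenic B cells were used. Per the labels' protocols, total RNA was DNase-treated and libraries were polyA-selected and strand-specific. Per the submitters' processing notes the deposited raw counts were made with STAR and HTSeq on build mm9, and edgeR is also named. The sources used here give no versions and no annotation release. The names of the deposited tables say that counting ignored strand. Each file held 37583 identifiers and 5 summary lines, which were removed. Of the identifiers, 32860 were matched to GENCODE M21 for symbols, lengths and overlaps.

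Genes were filtered by filterByExpr and fitted in edgeR 4.0.16 (R 4.3.3) with TMM factors and a mean for each of the 3 groups. The contrast was TLR minus CpG. The fit was tested on simulated data. Alternatives were DESeq2 1.42.0, other scalings, filters and covariates, and leaving out libraries. Deviations of TLR replicates 1 and 2 from their group mean correlated with those of the same-numbered CpG libraries (0.325 and 0.297). With only 2 TLR libraries these deviations mirror each other, so that the values are not separate. Replicate 1 also shares its name prefix across groups, and 2 shared numbers cannot establish pairs.

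Genes were named by rule: the 12 highest and 12 lowest folds among called protein-coding genes (mean over both groups 8 CPM or more), the 10 that gained and the 10 that lost most CPM, up to 4 per list by p, 10 fixed regulatory genes and up to 8 switched each way. Genes named by fold also needed an established symbol and no overlap of the groups, so that lack of overlap is no result for them. Pax5, Cd79a, Nop2, Pes1, H2-Aa, Il6, Tbx21, Car2, Hbb-bt, Egr1, Junb, Prdm1, Irf4, Il2ra, Fos, Jun, Birc3, Cd44, Vars, Pecam1 and Bst2 were added after their values were seen, as were genes given without a value of their own. Members, lists and tests were chosen with earlier results of these data known. Some genes that the rule or the lists name are not reported here.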

Additional observations from a re-analysis of the deposited data

How the results depend on the processing

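Under the 17 alternatives, the number of genes called was 5698 with DESeq2, 5394 with RLE factors, 5443 with library size alone, 5235 without a filter on low counts, 5285 at a mean of at least 1 CPM, 4654 with the CpG and TLR libraries alone, 6082 with the name prefix as a term and 4776 without replicate 1 of every group. With the replicate number as a block it was 5541, of which 5075 were also called without the block. RLE factors moved the median change of all genes by -0.02 and library size alone by 0.01 (log2). At a mean of at least 1 CPM, genes at least 8-fold higher numbered 69 and at least 8-fold lower 162. Leaving out 1 library at a time gave 3516 to 5625 called genes, 1683 to 2756 higher and 1833 to 2869 lower, with the lowest values without TLR replicate 1, and 843 to 1118 at least 2-fold higher, 1260 to 1668 at least 2-fold lower, 89 to 114 at least 8-fold higher and 213 to 278 at least 8-fold lower. The 1 TLR library left is then assumed to vary like the other groups. Of 222 named genes that were called, 200 kept call and direction in each of the 17 alternatives that tested them, 3 of which were not tested in all 17 (Cartpt, Fosl1 and Rgs18), and 22 lost the call in at least 1, and the direction of named genes reversed in none of them. With 2 TLR libraries, modest changes in genes with few counts are beyond the precision of these data.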
